A study of Mus musculus with 6 samples.

Results

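The population described here was the type 1 innate lymphoid cells (ILC1) of the mouse kidney, taken as the 3 sorted pools titled CD49a among 6 RNA sequencing libraries. Every gene was ranked by its own level in these 3 pools, and the receptors, transcription factors and secreted factors at the top of that order were described. The mice were C57BL/6 wild-type animals with no treatment, and the labels give neither age nor sex. Kidneys were digested, leukocytes were enriched by Percoll, by lysis of erythrocytes and with CD45 beads, and cells that carried NK1.1 and NKp46 but no CD3 were sorted. ILC1 were the CD49a+ cells with low or intermediate CD49b, and the other 3 libraries were conventional natural killer (cNK) cells from the gate with high CD49b. The number of mice behind each pool is not given, so SDs and p-values measure the spread between pools, which may be technical. The series belongs to work on both cell types in experimental glomerulonephritis, and the pools came from kidneys without disease.

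ILC1 are lymphocytes that settle in tissues, share the receptors NKp46 and NK1.1 with natural killer cells, and depend on the transcription factor T-bet and on the cytokine IL-15. They are known as early producers of interferon-gamma and of chemokines, and in mouse liver and salivary gland they carry CD49a, CXCR6 and the death ligand TRAIL. Hobit, encoded by Zfp683, is known to keep such resident cells in tissue, whereas mature cNK cells use Eomes and carry the egress receptor S1PR5.

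The ILC1 libraries held 22633440, 28327265 and 25081487 counts in pools 1, 2 and 3, and a single count equals 0.0442, 0.0353 and 0.0399 CPM in them. The table listed 23841 genes, of which 6038 with symbols starting mt- (mitochondrial) or Gm and digits (gene models) were left out of the order and 17803 were ranked. CPM is the deposited count scaled to the library total. Wherever genes are compared with each other, levels are given as TPM, in which counts were first divided by the length of the annotated exons. Mitochondrial genes took 1.38%, 2.25% and 6.53% of the counts of pools 1, 2 and 3, and all left-out symbols together took 12.5%, 15.6% and 31.0% of the TPM. Pool 3 therefore had less TPM left for every other gene, and its CPM was reduced less, since the same symbols held 3.54%, 5.20% and 11.8% of the counts. Across 12537 genes the 3 pools ranked genes much alike, with Spearman correlations of 0.963 (pools 1 and 2), 0.925 (pools 1 and 3) and 0.944 (pools 2 and 3), given as a description across genes of libraries from one protocol.

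The head of the ILC1 order held antigen presentation, cytoskeleton, ubiquitin and heat shock genes, followed by the effector genes of innate lymphocytes. B2m, the light chain of MHC class I, stood first at 20389, 24811 and 16265 TPM, and Actb and Tmsb4x followed within the next few places. All 3 pools put B2m first or next to first. The second place went to a locus without a symbol in the table, which GENCODE annotates as a miRNA gene of only 57 bases, and it stood at 258 in the order by CPM. Without the 620 genes shorter than 200 bases, 47 of the highest 50 genes were kept.

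Genes of innate lymphocytes came in close behind. AW112010, an interferon-induced transcript, stood at 8203, 13194 and 6902 TPM. The chemokine gene Ccl4 held place 9, Nkg7, a protein of cytotoxic granules, place 12, and Xcl1 and Ccl5 places 16 and 19. Fcer1g and Tyrobp, signalling adaptors of activating receptors on innate lymphocytes, stood at 15 and 17 with means of 4409 ± 899 and 3593 ± 916 TPM (SD, n = 3). Cd52 and Junb closed the first 20, and 15 of these 20 were among the highest 20 in every pool. The heat shock genes Hspa1b and Hspa1a, at 7 and 14, are near-identical copies whose reads could not be divided with certainty, and the same holds for Ubb and Ubb-ps.

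**Figure D1:**
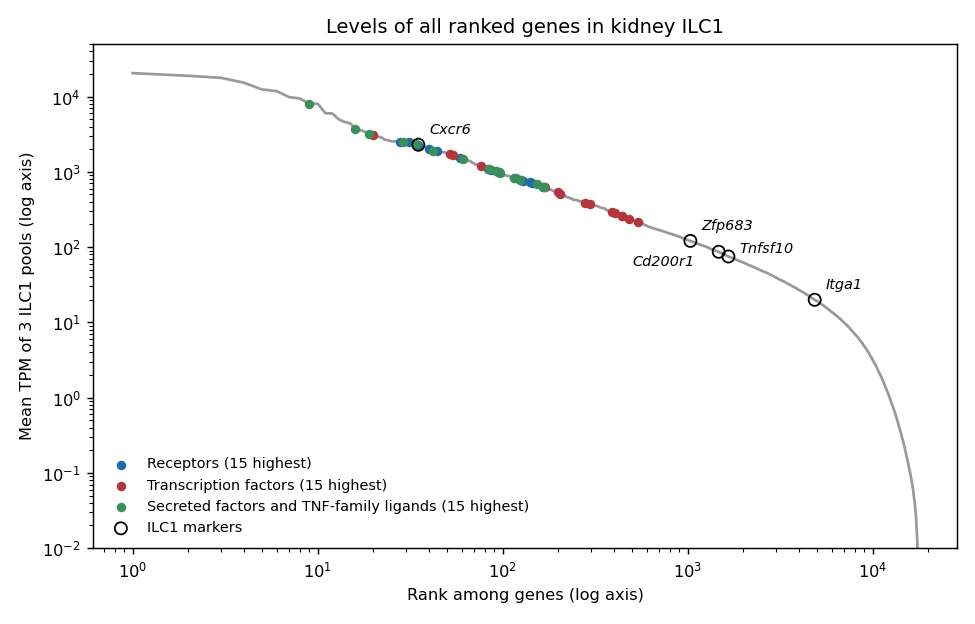
Mean TPM of the 3 ILC1 pools (log axis) against rank among 17803 genes (log axis) as a grey line, with the 15 highest receptors, transcription factors and secreted factors as coloured points and the 5 ILC1 marker genes as open circles. The coloured points lie between rank 9 (Ccl4) and rank 540 (Irf1), and the markers spread from rank 35 (Cxcr6) to rank 4864 (Itga1).

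The 5 genes chosen to mark kidney ILC1 were present in every pool but at very different depths of the order. Cxcr6, the receptor of CXCL16, was the only one near the top, at 1820, 2161 and 1475 CPM and rank 35 by TPM. Zfp683 stood at 97.3, 64.2 and 52.1 CPM and rank 1035. Cd200r1, an inhibitory receptor for CD200, stood at 117, 141 and 101 CPM and rank 1473.

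Tnfsf10, which encodes TRAIL, stood at 223, 140 and 109 CPM and rank 1661. Itga1, the integrin chain used for the sort, was the lowest of the 5 by TPM (30.88, 14.94 and 13.97 TPM, rank 4864) but stood at rank 1153 by CPM (204, 120 and 122 CPM), and its annotated exons span 18599 bases. In cNK the 5 genes ranked from 4196 (Cxcr6) to 11564 (Itga1) by TPM, so each stood lower in that order than in the ILC1 order.

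Promoter sequences are shown for the highest receptors and chemokines for which RefSeq supplied a window. Of 11 genes looked up, 6 matched the RefSeq table on GRCm38.p6 (Cxcr6, Ncr1, Xcl1, Ccl3, Itga1 and Tnfsf10), and Il2rb, Ccl4, Ccl5, Zfp683 and Cd200r1 are named only. Each window runs from 250 bases before to 50 bases after the start of the gene, on the strand of the gene. Capitals mark matches to TGTGGT (the core of Runx motifs, or ACCACA on the other strand) and to GGTGTGA (a T-box core). The windows are chr9:123806227-123806526 on the plus strand (Cxcr6), chr7:4337465-4337764 on the plus strand (Ncr1, the first of 2 windows), chr1:164935473-164935772 on the minus strand (Xcl1) and chr11:83649329-83649628 on the minus strand (Ccl3).
Cxcr6: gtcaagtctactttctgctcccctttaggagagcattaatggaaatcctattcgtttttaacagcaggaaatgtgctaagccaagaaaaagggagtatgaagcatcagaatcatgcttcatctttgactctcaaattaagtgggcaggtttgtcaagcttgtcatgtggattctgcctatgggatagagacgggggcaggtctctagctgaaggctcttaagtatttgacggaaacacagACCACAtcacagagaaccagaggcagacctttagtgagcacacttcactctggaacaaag
Ncr1: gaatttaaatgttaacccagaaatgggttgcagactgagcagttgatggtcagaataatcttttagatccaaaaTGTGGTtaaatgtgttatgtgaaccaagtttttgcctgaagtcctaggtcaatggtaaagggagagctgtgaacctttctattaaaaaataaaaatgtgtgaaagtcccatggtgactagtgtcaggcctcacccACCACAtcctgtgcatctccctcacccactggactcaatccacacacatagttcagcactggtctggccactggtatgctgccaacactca
Xcl1: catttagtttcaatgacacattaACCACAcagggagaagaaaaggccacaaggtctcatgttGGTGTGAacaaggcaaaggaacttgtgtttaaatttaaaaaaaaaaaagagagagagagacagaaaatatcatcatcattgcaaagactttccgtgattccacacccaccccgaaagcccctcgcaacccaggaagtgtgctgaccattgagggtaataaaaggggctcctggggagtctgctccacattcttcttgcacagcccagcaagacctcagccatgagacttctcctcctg
Ccl3: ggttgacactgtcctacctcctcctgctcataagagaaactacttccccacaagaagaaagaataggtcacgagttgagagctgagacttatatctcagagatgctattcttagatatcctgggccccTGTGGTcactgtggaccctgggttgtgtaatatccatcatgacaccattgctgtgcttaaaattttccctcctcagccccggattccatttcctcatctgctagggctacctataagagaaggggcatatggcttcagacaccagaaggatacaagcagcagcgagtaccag

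The Runx letters were found on either strand in the windows of Cxcr6, Ncr1, Xcl1 and Ccl3 and not in those of Itga1 and Tnfsf10. In Cxcr6 the match began 10 bases before the start, in Xcl1 227 and in Ccl3 122 bases before it, and Ncr1 held 2 matches. The T-box letters were found in the Xcl1 window alone among the 6 genes, beginning 188 bases before the start, and the AP-1 letters TGANTCA were found in none. Of all 32851 RefSeq windows of 300 bases, 16.8% held the Runx letters, 3.98% the T-box letters and 7.81% the AP-1 letters, counted on both strands with overlaps allowed. These are matches of letters and not measured binding.

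Receptors made up 4.95%, 4.53% and 3.66% of the counts of pools 1, 2 and 3. Of 411 receptor genes written down, 397 were in the table, 252 reached 1 TPM in every pool, 136 reached 10, 47 reached 100 and 6 reached 1000. The same levels were reached by 11121, 6017, 961 and 70 of all 17798 ranked genes with a length. The median receptor stood at 5.72 TPM against 5.05 TPM for all ranked genes. The 6 receptors over 1000 TPM in every pool covered cytokine sensing (Il2rb, Ifngr1), NK recognition (Ncr1, Klrc1), homing (Cxcr6) and costimulation (Cd7).

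Il2rb, the beta chain shared by the receptors of IL-2 and IL-15, led the class at 5486, 4536 and 3067 CPM and ranked 11 by CPM. In TPM it stood at 3607, 2453 and 1519, a mean of 2526 ± 1046 (SD, n = 3) and rank 28. Pool 1 was the highest and pool 3 the lowest, and pool 3 lay below the means of the 5 receptors that follow. The common gamma chain Il2rg, the partner of Il2rb, stood at 462, 437 and 336 CPM and rank 247 by TPM. Ifngr1, the ligand-binding chain of the interferon-gamma receptor, ranked 59 at 1953, 1880 and 1502 CPM. Il21r, the IL-21 receptor, followed at rank 406 with 372, 282 and 184 TPM, pool 3 again being the lowest.

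Ncr1 (NKp46), used in the sort, ranked 31 at 1553, 1902 and 1254 CPM. Klrc1, which encodes the inhibitory receptor NKG2A, ranked 44 at 1379, 1996 and 1238 CPM, and its partner chain Klrd1 (CD94) ranked 83 at 440, 817 and 493 CPM. Pool 2 was the highest for all 3 of these genes. Klrb1c, which encodes NK1.1, and its inhibitory relative Klrb1b ranked 144 and 125, at means of 717 ± 214 and 784 ± 150 TPM (SD, n = 3). Klrk1 (NKG2D), an activating receptor for stress ligands, ranked 180 by TPM and 46 by CPM.

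Of the 15 highest receptors, 4 (Klrb1c, Klrb1b, Klrd1 and Klrc1) lay in the NK gene complex of chromosome 6. They span GRCm38 positions 128778485 to 129678973. All 26 listed Klr genes of chromosome 6, not all of them in that complex, lie between 122270596 and 131247362. Genes of the Klrb1 and Klra (Ly49) families have near-identical relatives, and how reads matching several genes were counted is not given in the sources used here, so their levels are uncertain. Klra9 was the next receptor beyond the 15, at 590, 730 and 491 TPM against 1006, 511 and 382 TPM for Itgb1, the last inside. The pools of these neighbours overlapped.

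Cxcr6 and Cxcr3 were the chemokine receptors of highest level, and together with Ccr2 and Ccr8 they held 90.9% of the summed TPM of the 24 chemokine receptors in the table. Cxcr6 alone held 57.5%. Cxcr3, the receptor of interferon-induced chemokines, ranked 95 at 717, 863 and 573 CPM. Ccr2, the receptor of CCL2, stood at 186 ± 53.6 TPM and Ccr8 at 137 ± 21.3 TPM (SD, n = 3). Ccr2 is also on the list of macrophage, monocyte and dendritic cell genes (below). The part of such cells in its level was not tested. Of the 24 chemokine receptors, 12 reached 1 TPM in every pool, as did 11121 of all 17798 ranked genes with a length.

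Adhesion was carried by Selplg (PSGL-1, the ligand of P-selectin), Itgb7, Itgb2 and Itgb1. Itgb7, the beta chain that pairs with CD103 or with integrin alpha 4, stood at 1510, 1047 and 804 CPM. Itgb1, the partner of CD49a, stood at 1456, 900 and 733 CPM and rank 165 by TPM, far above Itga1 itself. Each of these 4 genes was highest in pool 1 and lowest in pool 3. Cd7 (rank 40 at 907, 1062 and 844 CPM) and the SLAM family member Cd48 (rank 129 at 313, 479 and 339 CPM) completed the 15.

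Below the 15, the highest TNF receptors were Tnfrsf1b (TNFR2) at 404 ± 261 TPM, Tnfrsf18 (GITR) at 212 ± 37.9 TPM and Tnfrsf1a (TNFR1) at 180 ± 40.1 TPM (SD, n = 3). The TNFR2 gene reached 704 TPM in pool 1 against 276 and 230 TPM in pools 2 and 3, and was the highest of the 3 in every pool. Tgfbr2, a receptor chain of TGF-beta, stood at 126, 49.2 and 41.6 TPM and Tgfbr1 at 29.9, 12.5 and 13.1 TPM, again highest in pool 1. Adgre5 (CD97) and Gpr171 led the other G protein-coupled receptors at 357 ± 152 and 308 ± 54.8 TPM. The checkpoint receptor genes Pdcd1 (PD-1) and Ctla4, named after their values were seen, stood at means of 145 and 30.01 TPM.

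**Figure D2:**
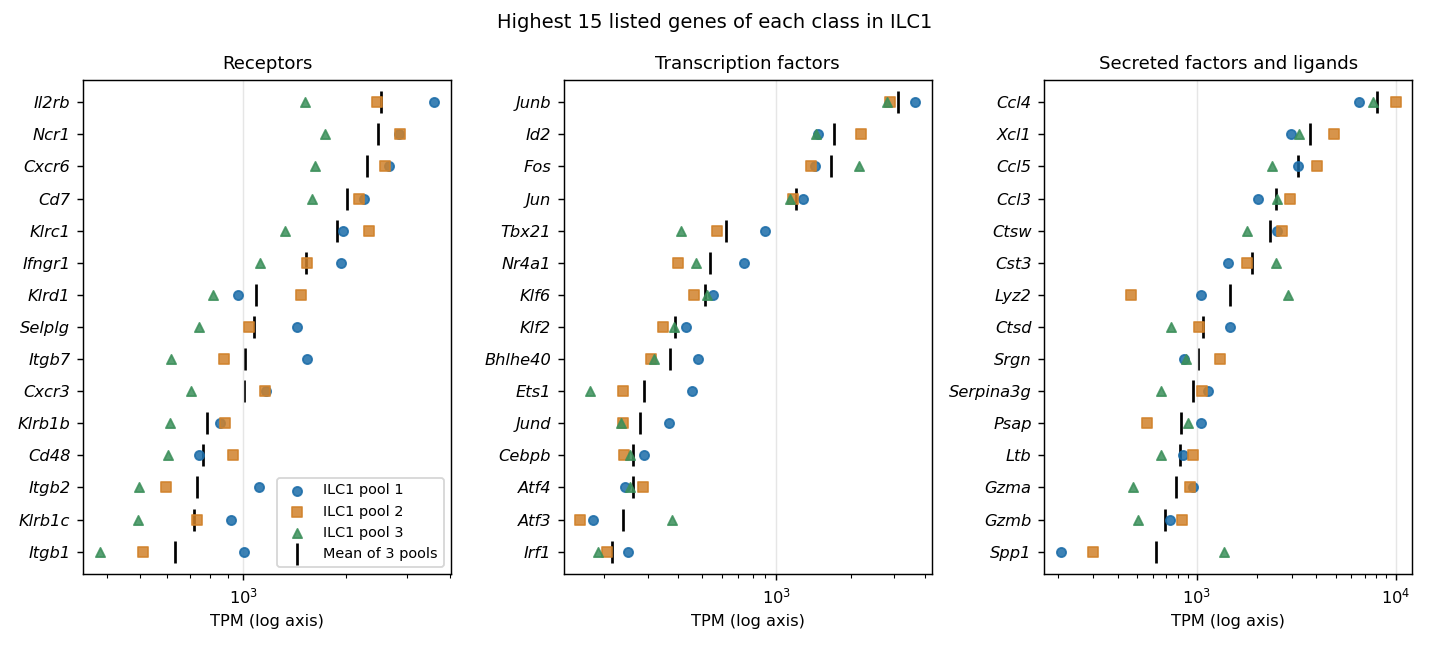
TPM (log axis) of the 15 highest receptors, transcription factors and secreted factors in ILC1 pool 1 (circles), pool 2 (squares) and pool 3 (triangles), with the mean as a black bar. Pool 3 is the lowest for every one of the 15 receptors, whereas Fos, Atf3, Cst3, Lyz2 and Spp1 are highest in pool 3.

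The order within the receptors was only partly fixed by these pools. Of the 14 neighbouring pairs among the 15, 5 kept the same order in every pool, and 12 of the 15 were among the highest 15 in each pool. In TPM, pool 3 was the lowest for all 15 receptors. By CPM this held for all but Klrd1 and Cd48, which were lowest in pool 1.

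Transcription factors made up 3.25%, 2.87% and 2.99% of the counts. Of 363 written down, 354 were in the table, 263 reached 1 TPM in every pool, 150 reached 10, 26 reached 100 and 4 reached 1000, and the median stood at 10.2 TPM. All 17798 ranked genes with a length had 11121, 6017, 961 and 70 at these levels and a median of 5.05 TPM. AP-1 genes led the transcription factors. Junb, a subunit of AP-1, ranked 20 at 2975, 2875 and 3055 CPM, Jun ranked 76 at 1453, 1612 and 1708 CPM, and Fos ranked 54 at 1200, 1401 and 2394 CPM. Junb and Jun were close to level across pools, whereas Fos was about as high in pools 1 and 2 and higher in pool 3.

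Atf3, a stress-induced member of the same family, had the same shape, at 138, 149 and 382 CPM. These are genes that tissue digestion and sorting are known to induce, and the immediate early list of 25 genes held 1.66%, 1.84% and 2.17% of the counts in ILC1 pools against 1.26%, 0.991% and 1.32% in cNK pools. The 15 heat shock genes held 3.21%, 3.26% and 2.62% in ILC1 and 2.30%, 1.81% and 1.72% in cNK. These are shares of all counts, of which the left-out symbols held 6.52%, 22.2% and 17.8% in cNK pools 1, 2 and 3. With edgeR (below), 1 of 25 immediate early genes (4%) and 1 of 15 heat shock genes (6.67%) were called higher in ILC1. None was called lower, and of all genes tested 4.07% were called higher. The part of handling in the AP-1 levels was not tested.

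Among lineage factors, Id2, the inhibitor of E proteins on which innate lymphoid cells depend, ranked 52 at 1278, 2325 and 1664 CPM. Tbx21, which encodes T-bet, ranked 169 at 790, 614 and 482 CPM, a mean of 626 ± 246 TPM (SD, n = 3). Id2 was highest in pool 2 and Tbx21 in pool 1. Zfp683 followed in the T-box, Hobit and Blimp-1 list at 121 ± 58.2 TPM, whereas its relative Prdm1 (Blimp-1) stood at 18.4, 10.3 and 9.94 TPM. Tbx21 alone held 77.8% of the summed TPM of that list.

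Eomes, the T-box factor of mature cNK cells, stood at 8.69, 4.94 and 3.20 TPM in ILC1, rank 8625, against rank 563 in cNK. Ets1, an activator of early NK development, ranked 388 by TPM and 101 by CPM at 1370, 870 and 702 CPM. Gata3 and Runx3, factors shared by several innate lymphoid lineages and named after their values were seen, stood at 70.0 ± 19.0 and 76.1 TPM.

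The remaining places went to Nr4a1 (rank 199), the activation-induced orphan receptor Nur77, to the Kruppel-like factors Klf6 (203) and Klf2 (280), and to Bhlhe40 (298), a factor tied to cytokine production in lymphocytes. Klf2, which drives S1PR1 expression in T cells, stood at 280, 276 and 335 CPM, with pool 3 the highest. Jund, Cebpb and Atf4 followed at ranks 403 to 441. Irf1, an interferon-response factor, closed the 15 at 352, 351 and 353 CPM and had the smallest ratio of highest to lowest pool of all genes with a mean of at least 50 CPM. Hopx, at 188, 232 and 154 TPM, stood just outside against 250, 205 and 188 TPM for Irf1. Of the 14 neighbouring pairs, 5 kept their order in every pool.

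Secreted factors and TNF-family ligands made up 2.03%, 2.29% and 2.68% of the counts. Of 295 written down, 261 were in the table. In every pool 128 reached 1 TPM, 73 reached 10, 33 reached 100 and 6 reached 1000. Those levels were reached by 11121, 6017, 961 and 70 of all 17798 ranked genes with a length. The secreted list had a median of 2.58 TPM, against 5.05 TPM for all ranked genes. The list was steep, with 44.8% of its summed TPM in its 4 highest genes, against 39.2% for transcription factors and 26.4% for receptors. All 4 were chemokines. The order holds within the list as written, which lacks Klk1, a secreted kallikrein of kidney tubules. Klk1, named after its values were seen, stood at 150, 591 and 3164 CPM and rank 24 by TPM, above Ccl3, with most of its level in pool 3.

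Ccl4, a chemokine that attracts lymphocytes and monocytes, led at 1532, 2845 and 2392 CPM, a mean of 8078 ± 1757 TPM (SD, n = 3). Xcl1, the ligand of XCR1 on cross-presenting dendritic cells, stood at 552, 1109 and 804 CPM and 3720 ± 1046 TPM. Ccl5 stood at 1098, 1670 and 1075 CPM (3211 ± 827 TPM) and Ccl3 at 552, 974 and 913 CPM (2503 ± 459 TPM). By CPM, pool 2 was the highest for all 4, and pool 1 was the lowest for all but Ccl5, for which pools 1 and 3 were close.

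These 4 genes held 98.6% of the summed TPM of the 31 chemokines in the table. The fifth, Ccl6, stood at rank 2430 with 43.6, 22.6 and 85.2 TPM and followed a different order of pools. Ccl3, Ccl4 and Ccl5 lie in one cluster of chromosome 11, where Ccl3 (83647844 to 83649355) and Ccl4 (83662584 to 83664683) are neighbours and Ccl5 (83525778 to 83530518) lies apart from them (GRCm38).

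The pools differed by transcript length, and the chemokine genes are short, with longest transcripts between 523 bases (Xcl1) and 766 bases (Ccl3). Among genes with a mean of at least 50 CPM, those with a transcript under 1000 bases had a median of 0.706 of the ILC1 mean CPM in pool 1, 1.26 in pool 2 and 0.9999 in pool 3 (189 genes). For transcripts of 8000 bases or more the medians were 1.24, 0.879 and 0.871 (187 genes). Pool 1 was thus low for short and high for long transcripts, which is also the direction in which the chemokines and the integrin chains differed between pools. The part of transcript length in those differences was not tested.

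**Figure D3:**
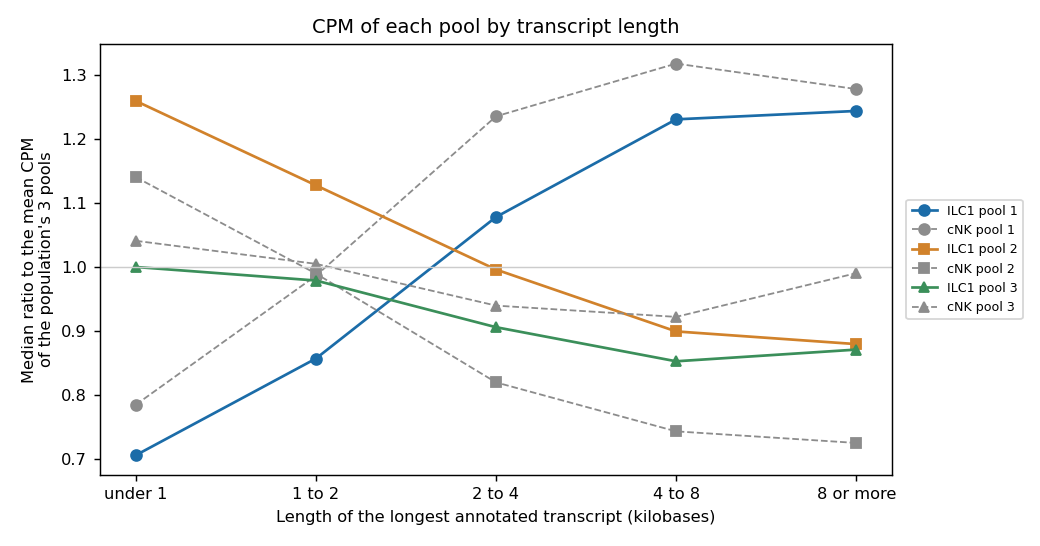
Median over genes of the ratio of each library's CPM to the mean CPM of its population (vertical axis) for 5 classes of longest annotated transcript (horizontal axis, kilobases). Coloured lines are the ILC1 pools and dashed grey lines the cNK pools, and ILC1 pool 1 climbs from 0.706 to 1.24 while ILC1 pool 2 declines from 1.26 to 0.879.

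The cytotoxic granule gene Ctsw came next in the secreted list. Cst3, Lyz2 and Ctsd followed at means of 1904, 1471 and 1079 TPM, above the other cytotoxic granule genes. Ctsw, a cathepsin of cytotoxic lymphocytes, ranked 34 at 1695, 2187 and 1595 CPM, and Srgn, the proteoglycan that packs granule proteins, ranked 92 at 670, 1244 and 908 CPM. Gzma and Gzmb, the granzymes, ranked 124 and 154 at 787 ± 267 and 694 ± 171 TPM (SD, n = 3), and Prf1, which encodes perforin, ranked 228 at 672, 405 and 276 TPM. In cNK the same 3 genes ranked 3, 17 and 28. For these 3 genes, a few cNK cells within the ILC1 gate and levels in ILC1 cannot be told apart. Gzmc, named after its values were seen, stood at 241, 435 and 313 TPM, whereas Gzmk stood at 0.359, 0.943 and 1.34 TPM.

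Among TNF-family ligands, Ltb (lymphotoxin beta) ranked 118 at 457, 626 and 473 CPM, Fasl ranked 304 at 287, 322 and 269 CPM, and Tnf ranked 1230 at 47.1, 81.0 and 87.2 CPM. Ltb and Fasl were highest in pool 2, and Tnf was lowest in pool 1. Of the cytokines, Ifng stood at 146, 256 and 221 CPM (rank 291, 380 ± 71.2 TPM) and Mif at 509 ± 62.4 TPM. Il2, Csf2 and Il10, named after their values were seen, stood at means of 11.4, 17.1 and 1.98 TPM, well below Ifng. The growth factors of highest level were Metrnl at 352 ± 42.1 TPM, Egf and Grn. Egf, a gene of the distal nephron, differed widely between pools (below).

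Some secreted genes differed widely between pools, as did genes of other cell types. Lyz2, lysozyme of myeloid cells, stood at 493, 264 and 1792 CPM, Spp1 (osteopontin) at 121, 213 and 1066 CPM, and Cst3 (cystatin C) at 644, 976 and 1485 CPM. All 3 were highest in pool 3. Without pool 3 the mean of Lyz2 was 760 TPM against 1471 TPM, and that of Spp1 254 against 627 TPM. Umod and Egf, genes of the distal nephron, stood at 504, 46.9 and 1114 TPM and at 159, 3.06 and 145 TPM, lowest in pool 2.

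The 28 genes of macrophages, monocytes and dendritic cells held 0.650%, 0.546% and 1.12% of the counts in ILC1 pools 1, 2 and 3 against 0.276%, 0.239% and 0.231% in cNK. The 23 kidney epithelial genes in the table held 0.163%, 0.115% and 0.501% in ILC1 against 0.218%, 0.784% and 0.631% in cNK. Their part in the levels of Lyz2, Spp1, Cst3, Umod and Egf was not tested. In bulk libraries such as these, fewer cells of a type and less RNA per cell cannot be told apart. Of the 28 myeloid genes, 24 reached 1 TPM in every ILC1 pool, as did 11121 of all 17798 ranked genes with a length. With edgeR (below), 11 of the 28 were called higher in ILC1 than in cNK (39.3%) and 1 lower (3.57%). Of all genes tested, 4.07% were called higher and 1.69% lower. Cd74, the invariant chain of MHC class II, stood at 3043, 1850 and 3755 TPM.

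**Figure D4:**
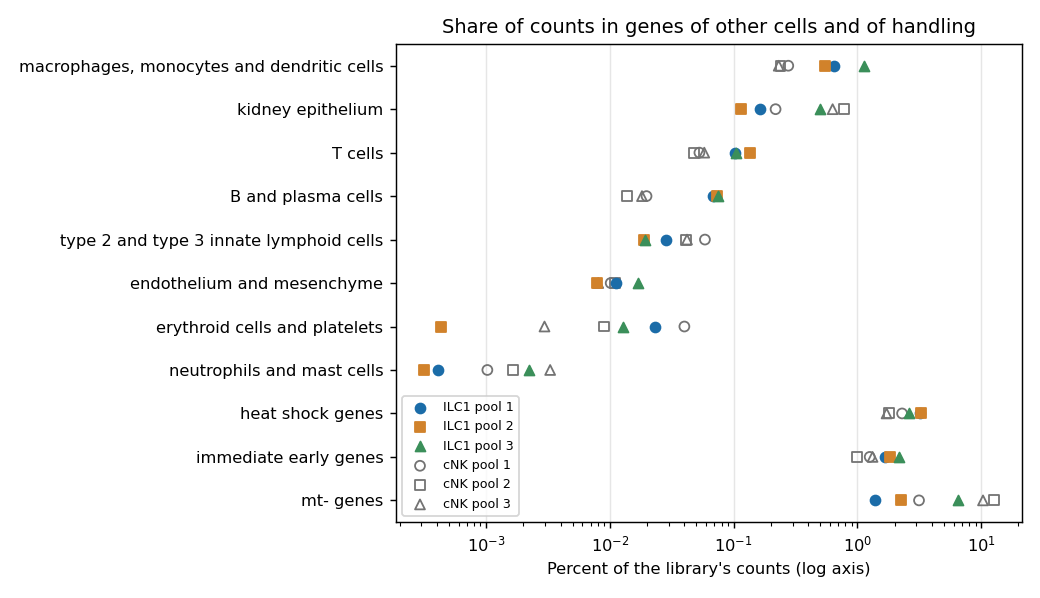
Percent of each library's counts (log axis) held by marker lists of other cell types, by heat shock and immediate early genes and by mitochondrial genes, with ILC1 pools filled and cNK pools open. The myeloid list is higher in each ILC1 pool (0.546% to 1.12%) than in each cNK pool (0.231% to 0.276%), and ILC1 pool 3 is the highest ILC1 pool for the myeloid, kidney epithelial and mitochondrial genes.

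The sort against CD3 could be checked by transcript. Cd3e stood at 1.47, 0.943 and 2.55 TPM, Cd3d at 8.16, 6.40 and 12.4 TPM, and Cd3g at 41.9, 49.9 and 47.4 TPM, and Cd4, Cd8a and Cd5 had means of 1.23, 1.58 and 0.394 TPM. Foxp3 was at 0 counts in pools 1 and 2. The T cell receptor constant genes Trbc2 and Trbc1, which have near-identical sequences, stood much higher, at means of 1319 ± 332 and 1075 ± 213 TPM, while Trac stood at 30.3 ± 4.38 TPM (SD, n = 3). The 15 T cell genes together held 0.103%, 0.134% and 0.104% of the ILC1 counts. In every ILC1 pool 7 of them reached 10 TPM, as did 6017 of all 17798 ranked genes with a length. Of 14 tested against cNK with edgeR (below), 3 were called higher (21.4%) and 0 lower, against 4.07% and 1.69% of all genes. The part of T cells in the Trbc levels was not tested.

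Markers of other blood and vessel cells were uneven. Pecam1, the highest of the endothelial list, stood at 41.0, 19.1 and 19.7 TPM. Ighm, the mu chain of antibodies, stood at 1002, 893 and 632 TPM, but Cd79a, the signalling chain of the B cell receptor, at 5.13, 0.393 and 4.36 TPM. Igkc, the kappa light chain, was high in pool 3 alone, at 12.2, 2.46 and 514 TPM. Haemoglobin genes were uneven too, with Hba-a1 at 278, 1.81 and 78.3 TPM. S100a8 was listed at 0, 0.236 and 15.6 TPM. Il1rl1, the IL-33 receptor of type 2 innate lymphoid cells, had a mean of 0.336 TPM.

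Spread between pools followed the same lists. Among 3792 genes with a mean of at least 50 CPM the median ratio of highest to lowest pool was 1.45, and it was 1.48 for 107 receptors, 1.39 for 128 transcription factors, 1.71 for 55 secreted factors and 11.8 for 10 kidney epithelial genes. The 5 widest were Aqp2 (0.0442, 21.6 and 249 CPM), Rhcg, Hsd11b2, Igha and S100g, of which Aqp2, Rhcg, Hsd11b2 and S100g belong to the distal tubule and collecting duct and Igha to plasma cells. Pool 3 was the highest for all 5. The 5 narrowest were Irf1, Adipor1, Cyb5r3, Gdi2 and Ttc3, with ratios between 1.004 and 1.013.

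Genes that mark ILC1 in other tissues were read as a list of 24. All 24 reached 1 TPM in every kidney ILC1 pool, 22 reached 10 and 12 reached 100. Of all 17798 ranked genes with a length, 11121 reached 1 TPM in every ILC1 pool, 6017 reached 10 and 961 reached 100. Il7r, the IL-7 receptor, stood at 76.8, 83.4 and 52.5 TPM, Rora at 45.8 ± 10.1 TPM, Inpp4b at a mean of 51.0 TPM and Cd226, the adhesion receptor DNAM-1, at 174 ± 45.3 TPM (SD, n = 3). Il2ra, Kit and Ikzf2 were the lowest, at means of 17.5, 15.8 and 7.79 TPM.

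Of the 22 genes of mature cNK cells, 21 also reached 1 TPM in every ILC1 pool and 7 reached 100. The same levels were reached by 11121 and 961 of all 17798 ranked genes with a length. A few cNK cells within the ILC1 gate and low levels in ILC1 cannot be told apart. S1pr5 ranked 6438 in ILC1 and 342 in cNK, and Klra4 7144 and 59. Itga2, the CD49b gene of the sort, stood at 10.8, 4.85 and 3.50 TPM, a mean of 6.37 TPM that was 4.18 TPM without pool 1. Zeb2, a maturation factor, was the lowest at 2.34, 0.739 and 1.92 TPM.

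**Figure D5:**
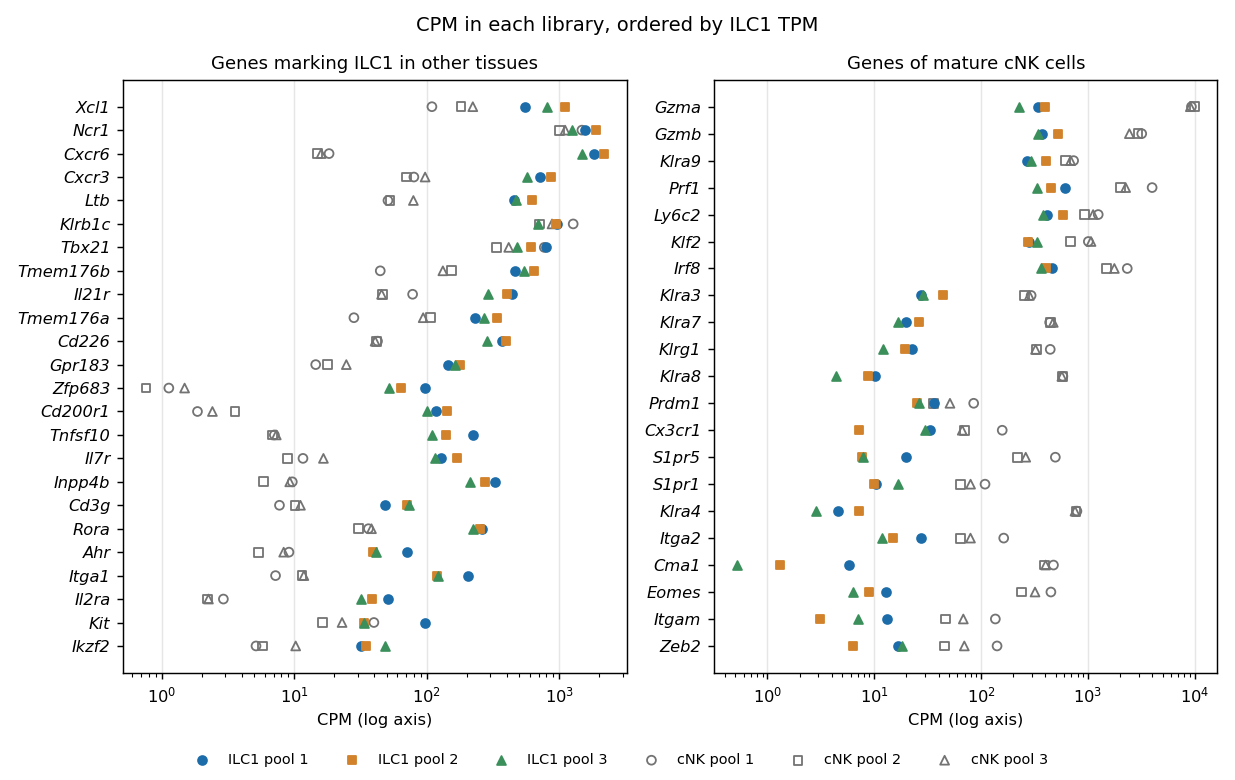
CPM (log axis) in each of the 6 libraries for 24 genes that mark ILC1 in other tissues and 21 of the 22 genes of mature cNK cells, ordered from top to bottom by mean TPM in ILC1. Filled symbols are ILC1 pools and open symbols cNK pools. Cxcr6 reads 1475 to 2161 CPM in ILC1, and Eomes 6.26 to 12.8 CPM.

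How far the top of the ILC1 order is shared with cNK was asked by ranking cNK in the same way. Of the 15 highest receptors 9 were the same in both populations, of the transcription factors 11 and of the secreted factors 10. Cxcr6, Cd7, Itgb7, Cxcr3, Klrb1b and Itgb1 were among the highest 15 receptors of ILC1 alone, and their places in cNK were held by Klra4, Klra9, Klra8, Klra7, Cd2 and Klrg1. Jund, Cebpb, Atf3 and Irf1, and Cst3, Lyz2, Serpina3g, Psap and Ltb, were in the ILC1 lists alone. A place in the ILC1 list alone is not a called difference. Itgb7, Itgb1, Jund, Atf3, Irf1, Cst3 and Psap were not called by edgeR (below).

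A test of the counts with edgeR (quasi-likelihood, Benjamini-Hochberg adjustment over 16144 genes at 0.05) called 4.07% of all genes higher and 1.69% lower in ILC1 than in cNK, 5.76% in all. Of the 15 highest receptors it called 4 higher (Cxcr6, Cd7, Cxcr3 and Klrb1b) and 0 lower, of the transcription factors 1 higher (Cebpb) and 1 lower (Klf2), and of the secreted factors 4 higher (Xcl1, Lyz2, Serpina3g and Ltb) and 3 lower (Ccl5, Gzma and Gzmb). Genes picked for a high ILC1 level lean toward ILC1 by that choice. Most of the highest receptors and transcription factors, Il2rb, Ncr1, Junb, Id2 and Tbx21 among them, were not called, with log2 differences (ILC1 over cNK) of 0.37 ± 0.29, 0.19 ± 0.24, 0.51 ± 0.18, 0.09 ± 0.31 and 0.12 ± 0.31 (SE). The DESeq2 Wald test, which called more genes, also called 6 of those that edgeR left uncalled, Junb (adjusted p = 0.0112), Jun (0.00121), Irf1 (0.0237), Klrc1 (0.00133), Cst3 (0.00106) and Psap (0.00653).

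Xcl1 differed by 2.03 ± 0.40 log2 units (edgeR adjusted p = 0.0329) and lost its call when ILC1 pool 2 was left out (0.0954) and with any cNK pool left out (0.0550, 0.100 and 0.104 for pools 1, 2 and 3). Serpina3g, a serine protease inhibitor of activated lymphocytes, lost its call in the same way for each cNK pool (0.0509, 0.0931 and 0.105) and for ILC1 pool 1 (0.0513). Lyz2 lost it without ILC1 pool 1 (0.0583), without each cNK pool (0.111, 0.123 and 0.131) and with pool number as a block (0.0522). Cebpb lost it without cNK pool 2 or 3 (0.0706 and 0.0846). With the block, Klrc1 was called higher (edgeR adjusted p = 0.0361), as were Cst3 (0.0167) and Psap (0.0494), and Itgb2 was called lower (0.0308).

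Over the whole lists, 78 of 355 receptors that passed the filter on low counts were called higher (22%) and 25 lower (7.04%) by edgeR, against 4.07% and 1.69% of all genes tested, with a median log2 difference of 0.40 against 0.01 for all genes tested. For transcription factors the counts were 22 (6.65%) and 11 (3.32%) of 331 with a median of 0.15, and for secreted factors 32 (16.5%) and 13 (6.70%) of 194 with a median of 0.17. By role, inhibitory NK receptors and checkpoints had 18 of 36 called higher (50%) and 3 lower (8.33%). Chemokine receptors had 6 of 16 higher (37.5%) and 1 lower (6.25%), and TNF-family ligands 7 of 14 higher (50%) and 2 lower (14.3%). Other Ly49 receptors had 6 of 10 lower (60.0%) and 0 higher, and cytotoxic granule proteins 7 of 11 lower (63.6%) and 1 higher (9.09%). These lists are small, and they were chosen with earlier results of these data known. AP-1, Atf, Nr4a and Egr factors, which led the transcription factors by level, had 2 of 46 called higher (4.35%), a share near the 4.07% of all genes, and 0 lower.

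The counts depended on single libraries. Without cNK pool 3 the receptors called were 39 higher and 16 lower, and without cNK pool 2 there were 50 higher. Transcription factors called higher numbered 14 and 10 without cNK pools 2 and 3, and 40 with pool number as a block. Those called lower numbered 6 and 22 without ILC1 pools 2 and 3 and 7 and 4 without cNK pools 1 and 3. For secreted factors, 18 and 11 were higher without cNK pools 1 and 3, and 24 and 7 were lower without ILC1 pool 3 and cNK pool 3.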

How the data were processed

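RNA was sequenced from 3 ILC1 and 3 cNK pools of naive mouse kidney. The authors deposited whole-number counts for each gene, not normalized. Per the submitters' processing notes, the tools were STAR 2.6.1, Trimmomatic 0.38, DESeq2 1.30.0, DESeq and R 4.03, with GRCm38. Not given in the sources used here are the counting program, annotation release, use of strand and treatment of reads that match several genes, so near-identical, overlapping and antisense genes are uncertain. The deposited mean column of ILC1, an averaged signal, matched the average of its count columns exactly. One entry without a gene was left out, 2 ranked symbol lists were not used, and every column of values was matched to a library.

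CPM and TPM were computed from the deposited counts with Python 3.11.15, pandas 2.3.3 and numpy 2.4.6. TPM used the union of annotated exons in GENCODE M21 (GRCm38), which gave a length for 23836 of 23841 genes. Genes were ranked by mean TPM of the ILC1 pools, and 424 genes without a symbol stayed in the order. Named genes were the 20 highest, the 15 highest of each class, the highest 3 of each list within a class, the 5 markers, the sort genes, the ILC1 and mature cNK lists, the 5 widest and 5 narrowest genes between pools and up to 5 markers of other cells. Some genes that this rule names are left out here. Members and lists were chosen with earlier results of these data known.

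ILC1 were compared with cNK by edgeR 4.0.16 in R 4.3.3 (TMM, filterByExpr, robust quasi-likelihood fit on population), tested on simulated counts first, with DESeq2 1.42.0 as an alternative. No 2 libraries were identical. Deviations from the population means correlated at 0.767, 0.152 and 0.171 between pools numbered 1, 2 and 3 (8881 genes). ILC1 pool 2 correlated more with cNK pool 3 (0.231), and ILC1 pool 3 more with cNK pool 2 (0.705). Pairing by number is thus not shown beyond pool 1, and the labels do not state a shared source. The main test was unpaired. Pool number was a block in an alternative, whose value is given where it changed a call. Depth was 22633440 to 28327265 counts a library, and 0 counts allowed up to 0.133 CPM (3 counts), which covers counting error only.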

Additional observations from a re-analysis of the deposited data

How the results depend on the processing

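Most of the highest genes were kept when the processing changed. The order by CPM, without length, kept 34 of the highest 50 genes and 12, 10 and 12 of the 15 receptors, transcription factors and secreted factors. The longest transcript as length kept 45, 13, 13 and 15, the median rank 46, 14, 14 and 14, and, chosen after seeing the data, leaving out genes under 200 bases kept 47, 15, 15 and 15. Leaving out each ILC1 pool kept 46 to 48 of 50 and 14 or 15 of each class. Of 70 levels, 25 moved up by more than 1 SD with mt- and Gm genes out of the total, and 12 moved with the longest transcript, 7 of them up.

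Counts of calls against cNK moved more. With the replicate block, pairing pools by number, 1107 genes were higher and 675 lower, and 40 transcription factors higher, against 657, 273 and 22, and no other count moved by over 1.5 times. The DESeq2 Wald test called 1153 genes higher and 693 lower, 39 receptors lower, 38 transcription factors higher and 19 lower, and 50 secreted factors higher. DESeq2 size factors or no filter moved no count beyond 1.5 times. Leaving out each library gave 214 to 695 genes higher and 93 to 672 lower, 39 to 82 receptors higher and 16 to 33 lower, 10 to 21 transcription factors higher and 4 to 22 lower, and 11 to 36 secreted factors higher and 7 to 24 lower, the lowest always without cNK pool 3 and the highest without ILC1 pool 3. The cause was not tested. With 3 pools a mean cannot move by 1 SD when a pool is left out, so single levels were read by their ratio. Of the 70 levels, those of Lyz2 (760 TPM against 1471) and Spp1 (254 against 627) moved by over 1.5 times without ILC1 pool 3, and that of Itga2 (4.18 against 6.37) without ILC1 pool 1.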
